A study of Mus musculus with 27 samples.

Results

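The knockdown (KD) of *Gfi1b* in mouse erythroleukaemia (MEL) cells was examined, using every library that the labels give to this experiment: 4 of the 27 samples of the series, and of its 21 RNA-Seq samples. MEL cells are a leukaemic line blocked at an erythroid progenitor stage that can be induced to mature. By the labels and the study's methods, 2 libraries (KD) are from MEL cells transfected with siRNAs against *Gfi1b*, and the 2 control libraries, labelled WT, from MEL cells given a non-targeting siRNA. The study used a pair of *Gfi1b* siRNAs, and the labels do not say which of them, or what time after transfection, belongs to which library. The *Gfi1b* RNA of the library labelled KD replicate 1 goes against that label, as given below, so it is uncertain that this library is a knockdown. KD replicate 1 and KD replicate 2 stand below for the libraries so labelled. The p-values measure a spread between libraries. It is that of these 4 libraries in the pooled fit and of the 2 controls in the single-library fits. In the joint fit and where the spread is shared, it is that of all 21 RNA-Seq libraries.

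GFI1B is a zinc-finger repressor of erythroid and megakaryocytic cells. Its SNAG domain recruits the histone demethylase LSD1 (encoded by *Kdm1a*) with CoREST and histone deacetylases to genes whose DNA carries an AATC core, and GFI1B is known to bind and repress its own gene. It was included in the study as a partner of the ETO2 complex, which holds late erythroid genes at a low level in progenitors, so the comparison asks which genes of MEL cells change when *Gfi1b* is lowered.

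*Gfi1b* itself went in opposite directions in the libraries labelled KD. It stood at 122.6 and 145.3 normalised read counts (CPM, counts scaled by library size) in the controls, at 214.8 CPM in the library labelled KD replicate 1 and at 76.4 CPM in the library labelled KD replicate 2. On the length-scaled RPKM values of the authors these levels were 68.9, 83.8, 122 and 43.3. The library labelled KD replicate 1 thus lay above both controls, and the library labelled KD replicate 2 lay below both. Over both KD libraries the log2 fold change was 0.13 (SE 0.44, edgeR adjusted p = 0.954), whereas KD replicate 1 alone gave 0.68 (SE 0.16) and KD replicate 2 alone −0.81 (SE 0.17). That the KD libraries differ in *Gfi1b* and in erythroid genes was known when the comparison was set up, so the single-library values of *Gfi1b*, and below those of haem, globin, red cell and erythroid regulator genes, are a description with no test, and called, raised or lowered says there only that a gene lay past the thresholds. Each KD library is described on its own beside the pooled comparison, both single-library comparisons use the same 2 controls, and no value of KD replicate 1 can be read as the effect of lower *Gfi1b*.

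**Figure D1:**
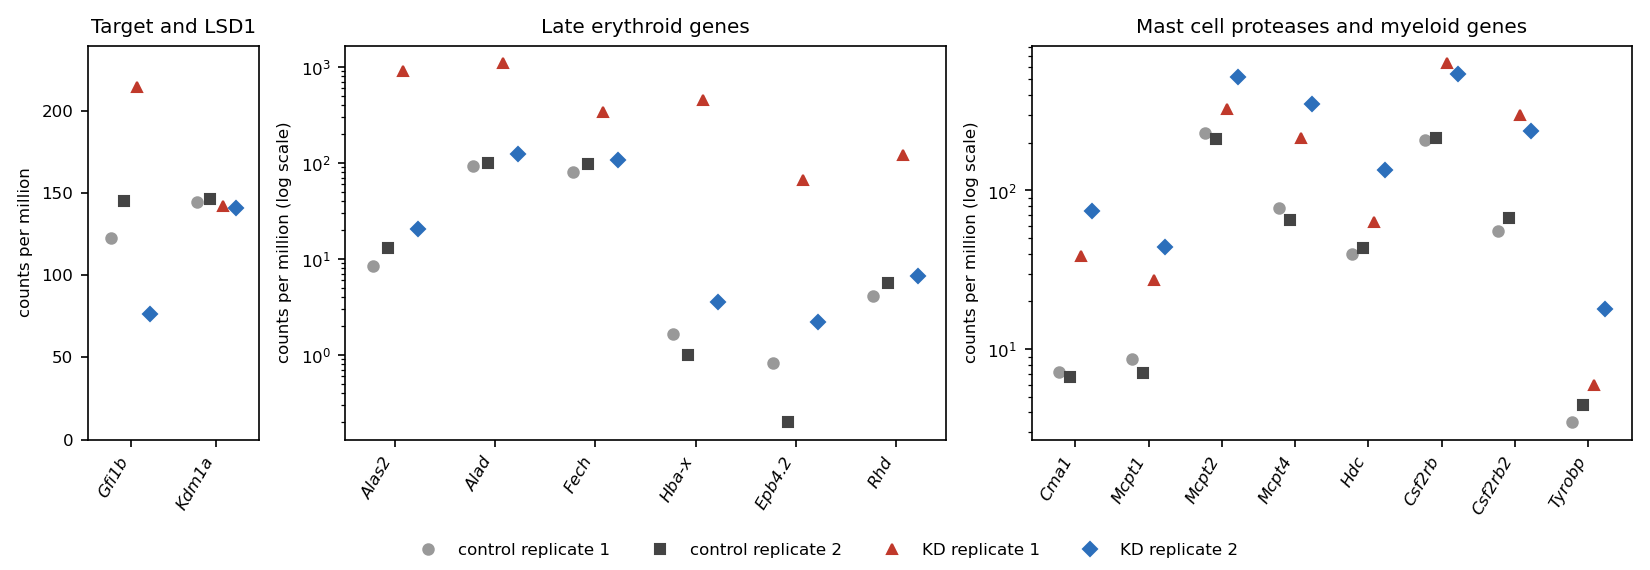
CPM (counts scaled by library size) in each of the 4 libraries, with circles and squares for the controls and triangles and diamonds for KD replicates 1 and 2; the left panel has a linear axis from 0 and the others have log axes. *Gfi1b* was at 214.8 CPM in KD replicate 1 and 76.4 CPM in KD replicate 2, late erythroid genes were high in KD replicate 1, and mast cell protease genes were above both controls in both KD libraries.

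Total counts ran from 9929311 to 18697566 per library, and 3 counts corresponded to 0.16 to 0.302 CPM. Across 11935 genes, log2 CPM of the controls correlated with r = 0.989, of KD replicate 2 with each control with r = 0.982, and of KD replicate 1 with the controls with r = 0.951 and 0.95. The cells expressed the erythroid regulators *Gata1* (377, 424, 531 and 406 CPM in control 1, control 2, KD replicate 1 and KD replicate 2, an order kept below) and *Klf1* (116, 131, 154 and 151 CPM). Of markers of other cell types, 13 of 15 listed lymphoid genes and 9 of 11 listed fibroblast, endothelial and epithelial genes stayed under 2 CPM in every library. The lymphoid genes summed to 24.6 to 34.5 CPM in the controls and to 36 and 40.9 CPM in KD replicates 1 and 2, and the fibroblast, endothelial and epithelial genes to 70.4 to 70.6 CPM and to 64.5 and 88.6 CPM. Of the 3193 genes with no count in either control, 1063 had counts in KD replicate 1 and 2571 in KD replicate 2, with a median of 3 counts in both and a summed level of 424 and 858 CPM, and the part of this low signal in the results below was not tested.

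With both KD libraries as replicates, edgeR's quasi-likelihood test called none of 11190 genes changed (0% raised and 0% lowered) at an adjusted p of 0.05 and an absolute log2 fold change of 0.5. The smallest adjusted p was 0.396, 784 genes had an unadjusted p under 0.05, and DESeq2 called 47 genes, of which 42 were raised and 5 lowered. The biological coefficient of variation was 27.4% in this fit and 13.9% when each KD library formed its own group. Against the controls alone, KD replicate 1 had 1761 raised genes (14.8% of 11935 tested) and 1403 lowered genes (11.8%), and KD replicate 2 had 255 raised (2.14%) and 146 lowered genes (1.22%). Between the KD libraries, 1478 genes were higher (12.4%) and 1272 lower (10.7%) in KD replicate 1. These single-library fits take the spread from the 2 controls and assume that a KD library varies like them. With the spread estimated over all 21 RNA-Seq libraries instead (the shared spread below), 3910 and 520 genes were called in KD replicates 1 and 2, and these held 2825 of the 3164 calls of KD replicate 1 (89.3%) and 241 of the 401 calls of KD replicate 2 (60.1%). In the pooled comparison the shared spread gave 907 called genes, and leaving out the filter on low counts gave 411. Calls of named genes that the shared spread ended are given below, most with their adjusted p. All 26 gene lists below were chosen with earlier results of these data known, and counts of members are to be read against these shares.

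**Figure D2:**
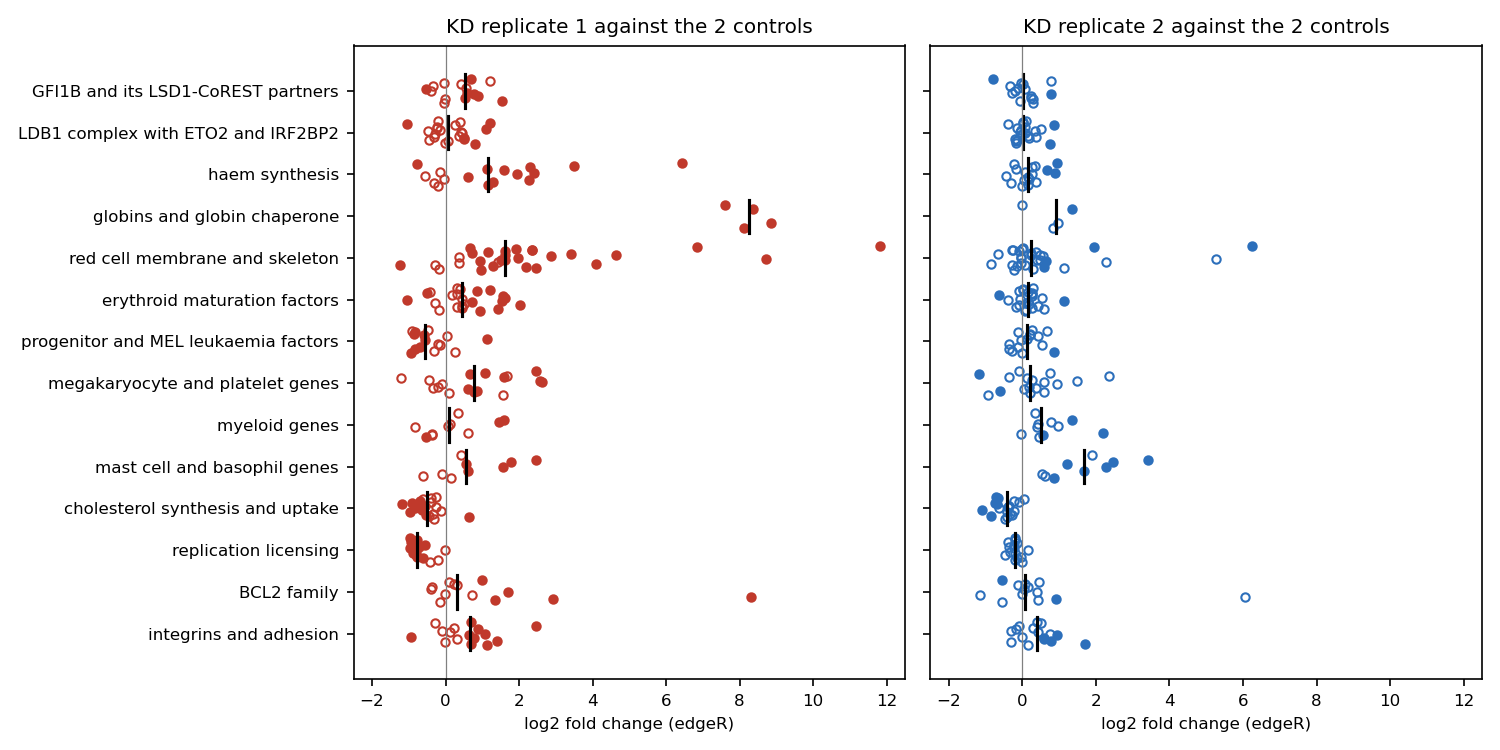
Log2 fold change of the tested members of 14 gene lists in KD replicate 1 (left) and KD replicate 2 (right), each against the 2 controls; filled points were called by edgeR and black bars are list medians. Haem synthesis genes had a median of 1.17 in KD replicate 1 and 0.16 in KD replicate 2, and mast cell genes 0.56 and 1.69.

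Most genes of haem synthesis were raised in KD replicate 1, and fewer in KD replicate 2. Of 17 tested genes, 11 were raised and 1 was lowered in KD replicate 1 (median log2 fold change 1.17, against 0.01 over all genes), and 3 were raised in KD replicate 2 (median 0.16, against −0.01 over all genes). Together they summed to 1420 and 1650 CPM in the controls, 4850 CPM in KD replicate 1 and 1680 CPM in KD replicate 2. *Alas2*, the erythroid enzyme of the rate-limiting step, was at 8.38, 13.1, 919 and 20.4 CPM, so that both KD libraries lay above both controls. Its log2 fold change was 6.44 (SE 0.18) in KD replicate 1 and 0.95 (SE 0.19) in KD replicate 2. *Alad*, the next enzyme of the pathway, was at 94.2, 101, 1092 and 123 CPM, and *Fech*, which inserts the iron, at 81.2, 96.9, 343 and 106 CPM. Both genes lay past the thresholds in KD replicate 1 (log2 fold changes of 3.48 and 1.95) and not in KD replicate 2 (0.33 and 0.26). *Urod* and *Ppox*, enzymes of late steps, lay past them in both (1.58 and 0.66 for *Urod*, 2.40 and 0.90 for *Ppox*), and *Alas1*, the form of the first enzyme found in all tissues, was lowered in KD replicate 1 by −0.79 in log2. *Ppox* did not do so in KD replicate 2 with the shared spread (edgeR adjusted p = 0.204), where 2 genes of the list were then raised.

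Globins and genes of the red cell membrane followed the same order of libraries. *Hba-x*, the embryonic ζ-globin gene, was at 1.65, 1.009, 455 and 3.56 CPM. Its log2 fold change was 8.35 (SE 0.22) in KD replicate 1 and 1.36 (SE 0.34) in KD replicate 2, where it was not called with the shared spread (edgeR adjusted p = 0.484). *Hbq1b*, a θ-globin gene, had 5, 3, 1775 and 7 counts, and reads of *Hbq1a* and *Hbq1b*, which are near-identical copies, may have been split between them. Of 29 tested genes of the red cell membrane and skeleton, 23 were raised and 1 was lowered in KD replicate 1 (median 1.62), and 4 were raised and none lowered in KD replicate 2 (median 0.24), or 2 with the shared spread. *Slc4a1*, the anion exchanger band 3, had 0 counts in both controls, 613 in KD replicate 1 and 8 in KD replicate 2, at least 265-fold and at least 5.54-fold higher than 3 counts over both controls, the call in KD replicate 2 being lost with the shared spread (edgeR adjusted p = 0.187). *Epb4.2*, the membrane skeleton protein 4.2, was at 0.824, 0.202, 66.1 and 2.21 CPM, with log2 fold changes of 6.85 and 1.95, of which the second was not called with the shared spread (edgeR adjusted p = 0.0567). *Rhd*, a Rhesus blood group protein, was at 4.12, 5.65, 120 and 6.70 CPM, and was called in KD replicate 1 (4.64) but not in KD replicate 2 (0.48, SE 0.29).

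Regulators of the erythroid programme and of progenitors changed mainly in KD replicate 1. Of 23 erythroid maturation factors, 9 were raised and 2 lowered there (median 0.45), against 1 raised and 1 lowered in KD replicate 2 (median 0.15), or none with the shared spread. *Tal1*, a core factor of the LDB1 complex, stood at 212, 206, 480 and 211 CPM, a log2 fold change of 1.20 in KD replicate 1 (SE 0.15) and of 0.01 in KD replicate 2. *Lmo2*, its bridging partner, was lowered in KD replicate 1 (332, 325, 158 and 251 CPM, log2 fold changes of −1.06 and −0.39, the second not called). Of 15 progenitor and leukaemia factors, 7 were lowered and 1 raised in KD replicate 1 (median −0.57), and 1 was raised in KD replicate 2 (median 0.12). *Myb*, a factor that keeps progenitors immature, was at 391, 316, 197 and 328 CPM and *Myc*, a driver of growth, at 435, 493, 255 and 539 CPM, with falls of −0.84 and −0.86 in KD replicate 1. The remaining lists of the LDB1 complex (21 genes, 4 raised and 1 lowered in KD replicate 1, 2 raised in KD replicate 2) and iron uptake and storage (11 genes, 3 and 2, then 1 and 0, and with the shared spread 1 raised and 2 lowered in KD replicate 1) had medians of 0.02 and 0.04 in KD replicate 2.

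The GFI1B corepressor genes were 15, of which 6 were raised and 1 was lowered in KD replicate 1 (median 0.52) and 1 was raised and 1 lowered in KD replicate 2 (median 0.03), *Gfi1b* included, and with the shared spread 4 were raised in KD replicate 1. *Kdm1a*, which encodes LSD1, was even in all libraries at 145, 146, 142 and 141 CPM. *Hmg20b*, a subunit of the LSD1 complex, was raised in both KD libraries (16.4, 19.5, 30.7 and 30.6 CPM, log2 fold changes of 0.78 in each, edgeR adjusted p = 0.00703 and 0.0492). *Gse1*, another partner of that complex, was at 147, 135, 408 and 135 CPM and passed in KD replicate 1 (1.53) but not in KD replicate 2 (−0.06). Of 10 genes known as targets of GFI1B or GFI1, 2 were raised in KD replicate 1, which were *Gfi1b* and the cytokine-signalling inhibitor *Socs3* (1.42), and 1 was lowered in KD replicate 2, which was *Gfi1b*. Their median was 0 in KD replicate 1 and 0.50 in KD replicate 2.

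Most tested mast cell genes stood higher in both KD libraries than in both controls, and their calls depend on where the spread is taken from. Mast cells arise from myeloid progenitors and store chymases, the granule proteases of the *Mcpt* and *Cma* family. Of 9 tested mast cell and basophil genes, 5 were raised in KD replicate 1 (median 0.56) and 6 in KD replicate 2 (median 1.69), and in 7 of 9 (77.8%) both KD libraries lay above both controls, against 19.3% of all 11190 genes. None of the 9 genes was called in either library with the shared spread. These genes vary between libraries of 1 group elsewhere in the series: *Mcpt4* was at 74.7 and 0.0701 CPM in the induced and at 21.3 and 6.72 CPM in the non-induced MEL cells, and *Mcpt2* at 127 and 17.0 CPM in the induced ones. Their summed level was 443 and 417 CPM in the controls, 754 CPM in KD replicate 1 and 1260 CPM in KD replicate 2. Near-identical copies make the levels of single proteases uncertain, since reads may be split among them. Of the 15 list members 11 had an entry, and *Mcpt8*, *Prss34*, *Tpsb2* and *Ms4a2* had none. *Fcer1a* and *Tpsab1* stayed under 2 CPM in every library and were not tested. *Il1rl1* lay below both controls in KD replicate 1.

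The sequences below are the 200 bases upstream of the gene start (GENCODE M1 gene models on mm9, 5′ to 3′ on the strand of the gene) for *Gfi1b* and for the genes above both controls in both KD libraries with the smallest DESeq2 adjusted p in the pooled comparison, with *Mcpt1* and *Mcpt2* as copies of *Mcpt4*. Capitals mark AATC or its reverse complement GATT, the core that GFI1B zinc fingers recognise. The *Gfi1b* sequence is chr2:28477503-28477702 (minus strand), *Cma1* chr14:56563499-56563698 (minus), *Mcpt1* chr14:56636601-56636800 (plus), *Mcpt2* chr14:56660760-56660959 (plus), *Mcpt4* chr14:56681148-56681347 (minus), *Csf2rb* chr15:78156220-78156419 (plus) and *Csf2rb2* chr15:78136053-78136252 (minus).
Gfi1b: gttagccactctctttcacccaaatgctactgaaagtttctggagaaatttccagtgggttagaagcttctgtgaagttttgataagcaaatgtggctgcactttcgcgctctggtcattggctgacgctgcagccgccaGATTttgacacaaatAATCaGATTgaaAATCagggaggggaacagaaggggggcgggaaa
Cma1: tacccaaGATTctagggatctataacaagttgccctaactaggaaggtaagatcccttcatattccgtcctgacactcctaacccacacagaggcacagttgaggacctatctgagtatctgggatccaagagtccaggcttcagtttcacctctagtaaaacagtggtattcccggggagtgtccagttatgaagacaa
Mcpt1: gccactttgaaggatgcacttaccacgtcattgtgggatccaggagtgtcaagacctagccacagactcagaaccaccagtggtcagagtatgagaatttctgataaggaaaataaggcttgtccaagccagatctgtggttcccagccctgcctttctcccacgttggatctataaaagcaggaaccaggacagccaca
Mcpt2: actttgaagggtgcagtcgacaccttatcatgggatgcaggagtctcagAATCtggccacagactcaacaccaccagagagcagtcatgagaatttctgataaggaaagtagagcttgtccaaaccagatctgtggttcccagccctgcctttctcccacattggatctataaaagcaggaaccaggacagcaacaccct
Mcpt4: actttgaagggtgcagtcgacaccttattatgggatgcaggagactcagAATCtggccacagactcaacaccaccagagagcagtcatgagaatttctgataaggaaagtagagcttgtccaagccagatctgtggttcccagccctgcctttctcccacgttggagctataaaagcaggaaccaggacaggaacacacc
Csf2rb: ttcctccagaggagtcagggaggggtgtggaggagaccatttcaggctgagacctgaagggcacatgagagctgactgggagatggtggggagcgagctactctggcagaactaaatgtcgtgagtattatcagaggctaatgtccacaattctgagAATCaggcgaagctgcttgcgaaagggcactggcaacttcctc
Csf2rb2: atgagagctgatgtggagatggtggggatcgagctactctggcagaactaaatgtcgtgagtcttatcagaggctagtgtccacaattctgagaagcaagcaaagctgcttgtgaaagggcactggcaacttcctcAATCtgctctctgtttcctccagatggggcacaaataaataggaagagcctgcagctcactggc
The *Gfi1b* promoter held 4 matches to the core, *Mcpt1* held 0 and the other 5 held 1 each. Of 14453 promoters of the same length, 57.5% held at least 1 match on either strand and 9.22% held 3 or more, and a match describes the letters of this window only. *Mcpt2* and *Mcpt4* were identical at 192 of 200 positions (96.0%), *Mcpt1* and *Mcpt4* at 82.8%, *Csf2rb* and *Csf2rb2* at 52.5% and *Cma1* and *Mcpt4* at 50.7% of aligned positions.

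*Cma1*, the chymase 1 gene, was at 7.21, 6.66, 38.5 and 74.7 CPM, with both KD libraries above both controls. Its log2 fold change was 2.47 in KD replicate 1 (SE 0.24, edgeR adjusted p = 1.79e-23), 3.42 in KD replicate 2 (SE 0.24, edgeR adjusted p = 9.29e-44) and 3.03 in the pooled fit (SE 0.38, edgeR adjusted p = 0.518). With the shared spread the adjusted p was 0.0665 in KD replicate 1 and 0.0597 in KD replicate 2, so that neither call held. The direct comparison of KD replicate 1 with KD replicate 2 gave −0.96 in log2 (edgeR adjusted p = 0.00256). *Mcpt4*, a chymase of connective tissue mast cells, was at 77.9, 65.6, 214 and 348 CPM (log2 fold changes of 1.57 and 2.28). *Mcpt1* was at 8.66, 7.07, 27.3 and 43.9 CPM (1.78 and 2.47), and *Mcpt2* at 231, 210.4, 325 and 516 CPM (0.56 and 1.22). *Cma2* and *Mcpt9*, family members named after their values were seen, were at 10.1, 8.18, 25.0 and 54.1 CPM and at 10.99, 7.27, 26.8 and 51.7 CPM. *Hdc*, which makes histamine, was at 40.0, 43.6, 63.6 and 134 CPM (0.61 and 1.69), and *Srgn*, the granule proteoglycan serglycin, at 70.3, 71.0, 78.0 and 128 CPM (0.14 and 0.85). With the shared spread the edgeR adjusted p in KD replicates 1 and 2 was 0.26 and 0.214 for *Mcpt4*, 0.0726 and 0.0602 for *Mcpt1*, 0.559 and 0.255 for *Mcpt2*, 0.602 and 0.194 for *Hdc* and 0.878 and 0.063 for *Srgn*. For *Cma2* it was 0.175 and 0.0656, and for *Mcpt9* 0.0631 and 0.0264, the last being past the threshold. The mast cell carboxypeptidase *Cpa3* stayed low at 1.44, 1.92, 2.23 and 6.20 CPM and was not called.

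The receptor chain genes *Csf2rb* and *Csf2rb2* rose by similar amounts in both KD libraries. *Csf2rb* encodes the β chain shared by the receptors for interleukin 3, interleukin 5 and GM-CSF and was at 208, 213, 631 and 539 CPM. *Csf2rb2*, its neighbour, encodes the β chain specific to interleukin 3 and was at 55.8, 66.8, 297 and 236 CPM. Log2 fold changes were 1.58 and 1.36 for *Csf2rb* and 2.28 and 1.95 for *Csf2rb2* (edgeR adjusted p = 2.57e-24, 2.02e-16, 3.98e-46 and 4.65e-32), and the KD libraries did not differ past the test (0.23 and 0.33, edgeR adjusted p = 0.376 and 0.188). These calls held with the shared spread (edgeR adjusted p = 0.000317 and 0.00799 for *Csf2rb*, 6.49e-05 and 0.00344 for *Csf2rb2*). In the pooled fit, *Csf2rb2* had the smallest edgeR adjusted p of all genes, 0.396. Reads may be split between these similar genes. Their levels also vary between the experiments of the series. In non-induced MEL cells, which had no KD, *Csf2rb* was at 581 and 341 CPM and *Csf2rb2* at 248 and 132 CPM, above the *Gfi1b* controls. Of 10 myeloid genes, 2 were raised and 1 lowered in KD replicate 1 (median 0.09) and 3 were raised in KD replicate 2 (median 0.51), where the adaptor gene *Tyrobp* stood at 3.50, 4.44, 5.99 and 18.0 CPM and was called in KD replicate 2 (2.19). The tetraspanin *Cd53* was at 30.6, 18.5, 39.9 and 81.0 CPM (0.69 and 1.71), and its calls in both libraries were lost with the shared spread (edgeR adjusted p = 0.538 and 0.187). With that spread 2 myeloid genes were raised in KD replicate 2.

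Listed binding sites of ETO2 or IRF2BP2, the corepressors studied in the same cells, lay near several of these genes. A site within 10 kb of the gene start was present for 38.9% of 10910 tested and annotated genes, for 47.0% of 1626 raised and 39.5% of lowered genes of KD replicate 1, and for 56.9% of 239 raised and 38.8% of lowered genes of KD replicate 2. Sites were centred 158 bases upstream of *Mcpt2* (chr14:56660481-56661144), 16 bases upstream of *Csf2rb* (chr15:78155565-78157084) and 29 bases upstream of *Csf2rb2* (chr15:78135605-78136751), with 22.5-fold, 8.83-fold and 10.7-fold enrichment over IgG in the deposited list. At *Gfi1b* a site lay 34 bases upstream of the start (chr2:28476833-28477930, 5.29-fold), and another, of 160-fold enrichment, lay 19635 bases downstream of the start (chr2:28457532-28458329), past the end of the gene. The list gives 1 fold for each site, with no replicate, and does not name the library behind it.

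Against the other RNA-Seq comparisons of the series, whose libraries are different, *Mcpt2*, *Csf2rb* and *Csf2rb2* were raised in the KD of *Kdm1a*. By the study's methods those KDs used lentiviral shRNAs, and values of *Cbfa2t3* KD are the mean of its hairpins sh2 and sh3. *Mcpt2* went from 4.26 CPM in the single *Kdm1a* control library to 65.4 and 58.7 CPM, and *Mcpt4* from 0.205 to 6.30 and 5.998 CPM. *Cma1* had 0 counts in that control and 1 and 15 counts after *Kdm1a* KD, and *Mcpt1* 0, 238 and 123 counts. By the joint fit over all 21 libraries the log2 fold changes in *Kdm1a* KD were 3.86 for *Mcpt2* (edgeR adjusted p = 0.0103), 4.89 for *Mcpt4* (edgeR adjusted p = 0.174), 1.22 for *Csf2rb* (edgeR adjusted p = 0.0181) and 1.61 for *Csf2rb2* (edgeR adjusted p = 0.0114). In the KD of *Cbfa2t3*, which encodes ETO2, and in that of *Irf2bp2*, *Csf2rb2* was raised by 1.44 and 1.32. *Mcpt4* moved there by 0.12 and 0.05, which did not pass. At 0.22 and 0.18 CPM in the *Cbfa2t3* controls and 0.20 and 0.099 CPM in the *Irf2bp2* controls, *Mcpt4* was too low to show whether it responds. In the *Gfi1b* controls of the same fit it was at 77.9 and 65.0 CPM.

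**Figure D3:**
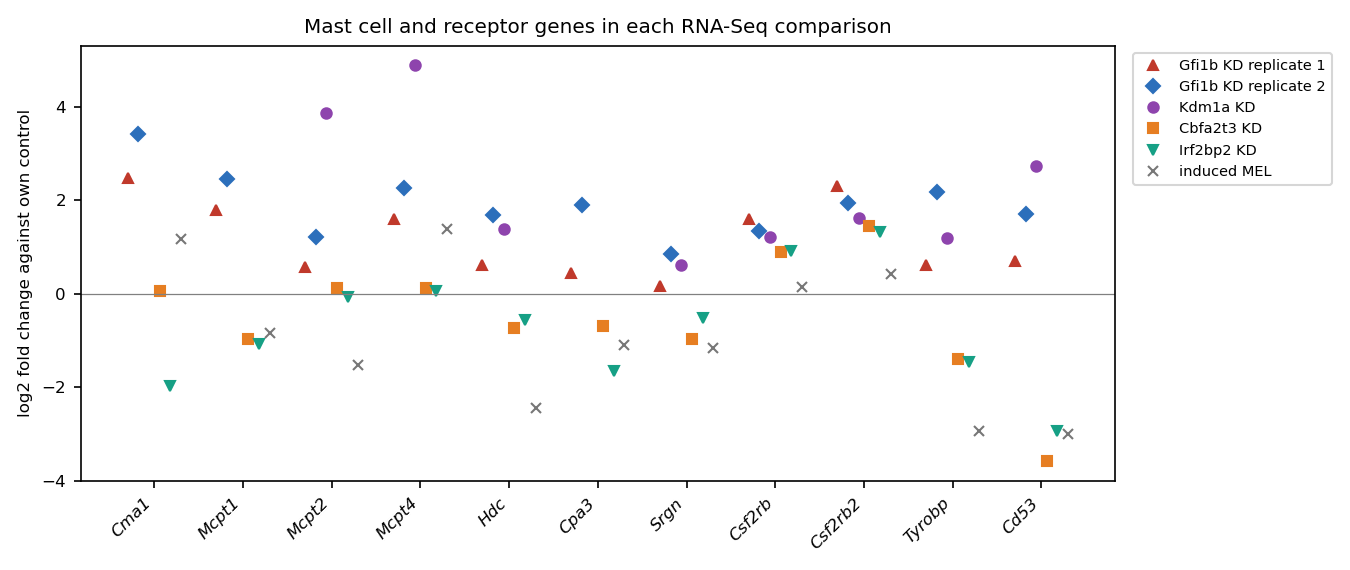
Log2 fold change of 11 genes in *Gfi1b* KD replicates 1 and 2, the KDs of *Kdm1a*, *Cbfa2t3* and *Irf2bp2*, and induced MEL cells, each against its own controls, from the fit over 21 libraries; the *Kdm1a* values of *Cma1*, *Mcpt1* and *Cpa3* are not drawn because that control held 3 counts or fewer. *Cma1* had at most 1 count, and *Mcpt1* and *Mcpt4* at most 22, in each *Cbfa2t3* and *Irf2bp2* library, so their points there lie near the floor. *Csf2rb2* was raised by 2.30 in the library labelled KD replicate 1, where *Gfi1b* RNA was above the controls, by 1.94 in KD replicate 2 and by 1.32 to 1.61 in the KDs of *Kdm1a*, *Cbfa2t3* and *Irf2bp2*.

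Platelet genes were mostly called in KD replicate 1, and some genes were called in opposite directions in the 2 KD libraries. Of 17 megakaryocyte and platelet genes, 9 were raised in KD replicate 1 (median 0.79) and 2 were lowered in KD replicate 2 (median 0.21). *Itga2b*, the platelet integrin chain CD41, was at 99.4, 142, 665 and 112 CPM (2.47 and −0.10), so that KD replicate 2 lay between the controls and was not called. *Pf4*, the platelet chemokine, was at 121, 142, 210.4 and 57.8 CPM, above both controls in KD replicate 1 (0.68) and below both in KD replicate 2 (−1.19, SE 0.17, edgeR adjusted p = 4.04e-09). *Plek*, a platelet kinase substrate, was at 402, 400, 724 and 264 CPM (0.85 and −0.60), and the survival gene *Bcl2* at 232, 251, 484 and 164 CPM (1.00 and −0.56). The proliferation marker *Mki67* was at 2013, 1801, 3225 and 1259 CPM (0.76 and −0.60). *Pf4*, *Plek*, *Bcl2* and *Mki67* were each called in both libraries. With the shared spread the calls of *Pf4* in KD replicate 1 and of *Mki67* in KD replicate 2 were lost. Among 13 BCL2 family genes, 5 were raised in KD replicate 1 and 1 was raised and 1 lowered in KD replicate 2 (2 raised with the shared spread). *Bcl2l11*, which encodes the death-promoting BIM, was raised in both (20.5, 17.5, 144 and 35.6 CPM, 2.92 and 0.90).

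A part of the cholesterol synthesis genes was lowered in each KD library. Of 18 genes, 8 were lowered and 1 raised in KD replicate 1 (median −0.49) and 6 were lowered in KD replicate 2 (median −0.43, 5 lowered with the shared spread), and 16 of 18 (88.9%) lay below both controls in both KD libraries, against 20.1% of all genes. The list summed to 2210 CPM in each control and to 1700 and 1530 CPM in KD replicates 1 and 2. *Idi1*, the isomerase that makes the building block of isoprenoids, was at 112, 110.02, 58.5 and 66.2 CPM (−0.92 and −0.74). *Fdps*, which joins these blocks, was at 119, 133, 55.5 and 78.2 CPM (−1.18 and −0.68, the second with an edgeR adjusted p of 0.0608 with the shared spread). *Cyp51*, which removes a methyl group from lanosterol, was at 102, 81.4, 58.4 and 42.9 CPM (−0.65 and −1.10). *Insig1*, a brake on the pathway, was raised in KD replicate 1 (0.63) and was not called in KD replicate 2 (−0.42).

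Genes of replication licensing, which load the helicase onto DNA before S phase, were mostly lowered in KD replicate 1. Of 15 genes, 12 were lowered in KD replicate 1 (median −0.79) and none was called in KD replicate 2 (median −0.20), and 12 of 15 (80%) lay below both controls in both libraries, against 20.1% of all genes. *Mcm2*, a helicase subunit, was at 427, 399, 211 and 359 CPM (−0.97, SE 0.16, edgeR adjusted p = 5.45e-08, and −0.20, edgeR adjusted p = 0.604). *Mcm4*, another subunit, was at 355, 315, 175 and 254 CPM (−0.94 and −0.40, the second not past the test). Of 25 cyclins, CDKs and CDK inhibitors, 2 were raised and 6 lowered in KD replicate 1 and 2 were lowered in KD replicate 2 (none with the shared spread). The KD libraries differed directly for *Mcm2* by −0.77 in log2 (edgeR adjusted p = 0.000309), with KD replicate 1 the lower.

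**Figure D4:**
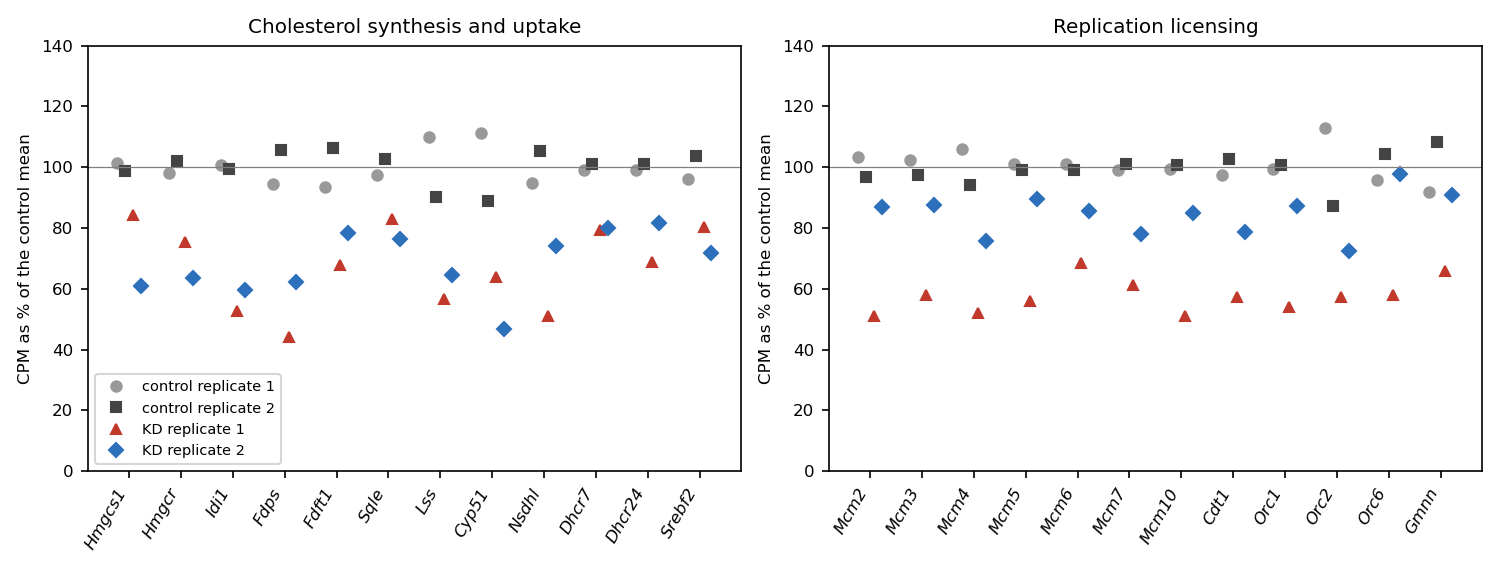
CPM of each library as a percentage of the mean of both controls for genes of cholesterol synthesis and uptake (left) and replication licensing (right). Both KD libraries lie below both controls for 16 of 18 tested cholesterol genes and 12 of 15 tested licensing genes, not all of which are drawn. *Insig1*, *Mvk*, *Cdc6* and *Pcna*, which do not lie below both controls in both KD libraries, are among the genes not drawn.

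Further genes were called in the same direction in both KD libraries, and those of this paragraph were chosen after their values were seen. With the shared spread the calls in KD replicate 2 were lost for *Nab2* (edgeR adjusted p = 0.219), *Spry4* (0.0769), *Mxd1* (0.109) and *Pdcd4* (0.0739). *Egr1*, an early growth response factor, fell from 88.6 and 83.4 CPM to 17.1 and 39.7 CPM (−2.33 and −1.11). Its corepressor *Nab2* was at 42.0, 42.0, 12.4 and 19.4 CPM (−1.76 and −1.11), and *Spry4*, an inhibitor of MAP kinase signalling, at 21.0, 15.2, 6.95 and 6.36 CPM (−1.39 and −1.51). Of 25 early growth response genes, a list chosen after values were seen, 10 were lowered and 2 raised in KD replicate 1, and 3 lowered and 1 raised in KD replicate 2 (1 lowered with the shared spread). *Ammecr1* was at 52.3, 49.3, 18.1 and 18.9 CPM (−1.49 and −1.42). Among raised genes, *Mxd4*, a MAX partner that opposes MYC, was at 6.46, 8.88, 61.8 and 28.2 CPM (3.02 and 1.89), its relative *Mxd1* at 15.05, 22.9, 54.9 and 41.3 CPM (1.54 and 1.13), and *Pdcd4*, an inhibitor of translation, at 115, 141, 392.4 and 273 CPM (1.62 and 1.10). *Tmem173*, which encodes the DNA sensor adaptor STING, had 6, 8, 121 and 133 counts (3.44 and 4.25). Of 30 lysosomal genes, also listed after values were seen, 10 were raised and 1 was lowered in KD replicate 1 and 4 were raised in KD replicate 2, or 2 with the shared spread.

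Some genes were lowered in KD replicate 2, the library with less *Gfi1b* RNA, and not called in KD replicate 1. Those of this paragraph were chosen after their values were seen, among the largest falls in KD replicate 2. *Mapk8*, which encodes the kinase JNK1, was at 51.3, 51.5, 49.0 and 20.5 CPM (−0.07 and −1.32), with both KD libraries below both controls and KD replicate 2 the lower. The metalloprotease gene *Adam9* was at 43.6, 32.9, 32.7 and 13.7 CPM (−0.23 and −1.49). Direct comparison of the KD libraries gave 1.25 for *Mapk8* and 1.26 for *Adam9*, a description with no test, since the choice of these genes largely fixed it.

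By log2 fold change, the genes that separated the KD libraries most had at most 3 counts in either control. The 6 genes with the largest difference in favour of KD replicate 1 were *Muc6* (3, 0, 524 and 0 counts), *Sbsn* (1, 1, 317 and 0), *Btn1a1* (0, 3, 159 and 0), *Ptprh* (0, 0, 126 and 0), *Slfn14* (2, 0, 119 and 0) and *Retn* (0, 0, 116 and 0). Those in favour of KD replicate 2 were *Muc19* (0, 0, 0 and 50 counts), *Gm3002* (0, 0, 0 and 42), *Hrnr* (0, 0, 0 and 31), *Speer8-ps1* (0, 0, 0 and 28), *Atp6v0a4* (1, 0, 0 and 27) and *Gnao1* (0, 0, 0 and 26). *BC021767* had 2, 10, 4689 and 11 counts, and it overlaps the cingulin gene *Cgn* on the same strand, so reads of the pair cannot be told apart.

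The remaining lists gave few calls in KD replicate 2. Of 15 interferon-stimulated genes, 3 were raised and 2 lowered in KD replicate 1 and 0 in KD replicate 2. Of 15 stress response genes of ATF4 and CHOP, 4 were raised and 4 lowered, then 1 raised. Of 18 genes of the KIT and EPO receptor pathways, 4 were raised and 1 lowered, then 1 raised, of 20 TGF-β and SMAD genes 3 and 2, then none, and of 17 Wnt pathway genes 1 and 2, then none. The shared spread gave 2 raised and 2 lowered stress response genes and no raised Wnt pathway gene in KD replicate 1, and in KD replicate 2 it gave 1 raised interferon-stimulated gene, 1 raised TGF-β and SMAD gene and none of the KIT and EPO receptor pathways. Of 16 integrin and adhesion genes, 9 were raised and 1 lowered in KD replicate 1 (median 0.66), and 4 were raised in KD replicate 2 (median 0.41), *Cd53* among them, or 2 with the shared spread. None of 4 tested lymphoid genes was called in either library, and of 3 tested fibroblast, endothelial and epithelial genes *Pdgfrb* was raised in KD replicate 2 (1.26). With the shared spread *Pdgfrb* was not called (edgeR adjusted p = 0.0704) and 1 lymphoid gene was raised in KD replicate 2.

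Across 9937 genes, the log2 fold changes of KD replicate 1 correlated with those of induced against non-induced MEL cells (Pearson's r = 0.724, Spearman's rho = 0.702), and for KD replicate 2 these values were 0.001 and −0.051. With *Kdm1a* KD the values were 0.003 and 0.058 for KD replicate 1 and 0.233 and 0.215 for KD replicate 2, with *Cbfa2t3* KD 0.314 and 0.05, then 0.019 and −0.051, and with *Irf2bp2* KD 0.32 and 0.164, then 0.023 and 0.022. All are descriptions over genes that share libraries. Of 1760 genes raised in KD replicate 1, 65.1% were raised by induction, against 17% of all genes, and of the 1403 lowered genes 72.1% were lowered by it, against 21% of all. Of 250 genes raised in KD replicate 2, 24.8% were raised and 36.4% lowered by induction, and 17.6% were raised in *Kdm1a* KD, against 2.55% of all genes. In *Irf2bp2* KD 12.8% of them were raised and 16.4% lowered, against 4.45% and 5.24% of all genes, and in *Cbfa2t3* KD 3.2% and 5.6%, against 0.522% and 0.776%. *Alas2*, *Alad* and *Rhd* changed by 5.48, 3.95 and 4.42 in log2 upon induction, and in *Kdm1a* KD *Alas2* and *Rhd* changed by 0.09 and −1.75.

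**Figure D5:**
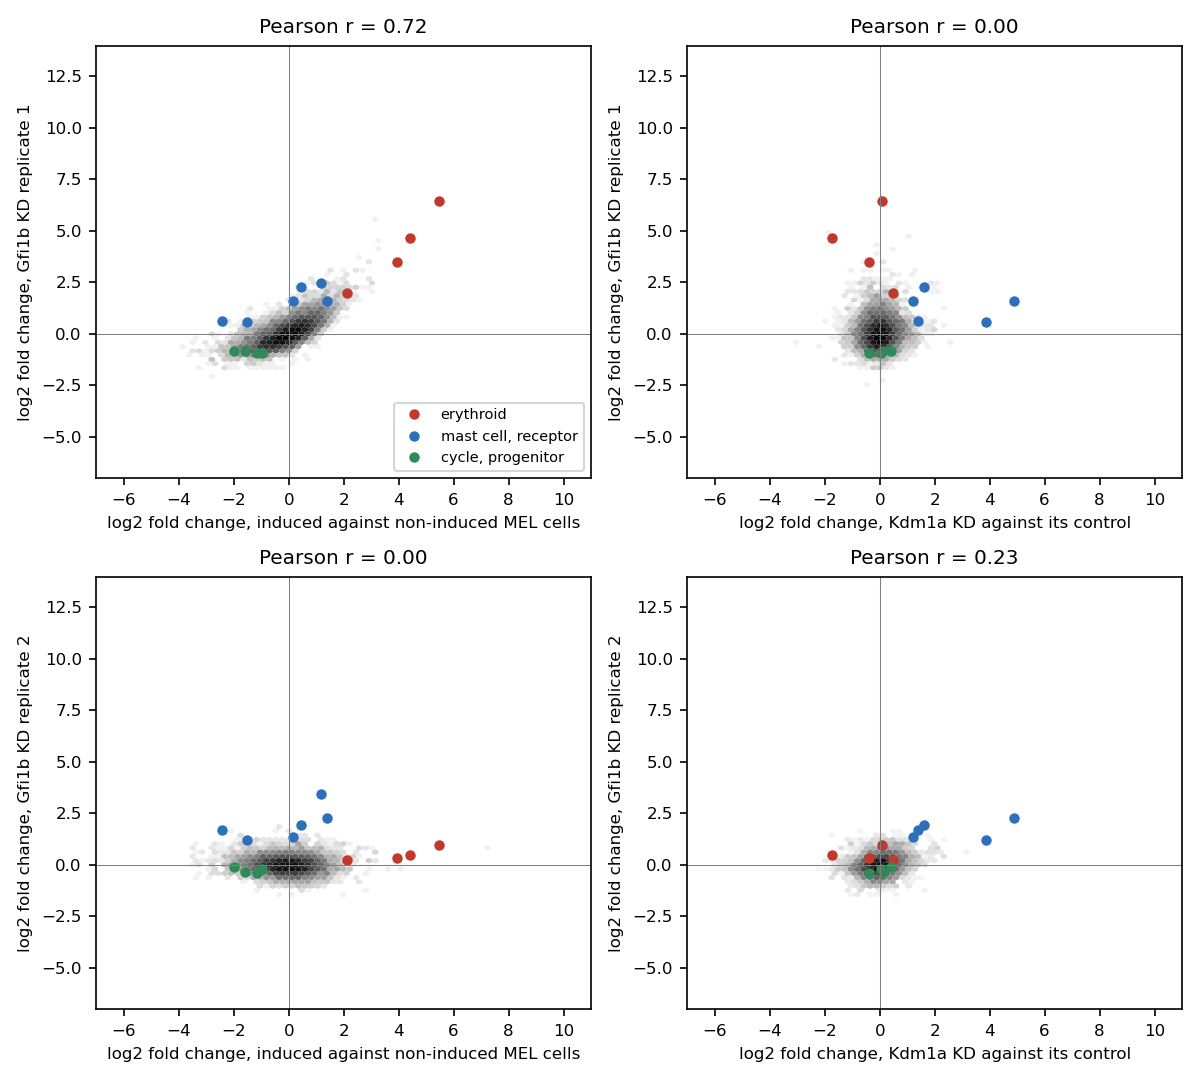
Log2 fold changes of 9937 genes (grey density) in KD replicate 1 (top) and KD replicate 2 (bottom) against those of induced MEL cells (left) and *Kdm1a* KD (right), with named erythroid, mast cell and receptor, and cell cycle or progenitor genes as points; *Cma1* is not drawn for *Kdm1a*, whose control had 0 counts. The erythroid points lie high in both axes for KD replicate 1 against induction (Pearson's r = 0.724), and the mast cell points lie high in both axes for KD replicate 2 against *Kdm1a* KD (0.233).

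The pooled *Gfi1b* KD effect was also set against each other KD by the difference itself, in the joint fit of 14176 genes. The *Gfi1b* effect was higher than the *Cbfa2t3* effect for 281 genes (1.98%) and lower for 87 (0.614%), higher than the *Irf2bp2* effect for 725 (5.11%) and lower for 327 (2.31%), and higher than the *Kdm1a* effect for 273 (1.93%) and lower for 122 (0.861%). These 368, 1052 and 395 calls fell to 68, 105 and 1 when only the libraries of the compared tables were fitted, were 3124, 3550 and 2909 without KD replicate 2 and 640, 1764 and 489 without KD replicate 1, and were 136, 647 and 151 without control replicate 1 and 141, 710 and 304 without control replicate 2. The pooled effect averages a library with more and a library with less *Gfi1b* RNA than the controls. *Idi1* was lower under all 3 differences (−0.97, −1.49 and −1.01), and *Mxd4* was higher under all 3 (2.97, 2.55 and 1.98). The *Kdm1a* experiment has 1 control library and the shRNA and siRNA experiments differ in how the gene was lowered, which cannot be told apart from the gene.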

How the data were processed

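RNA-Seq of 4 *Gfi1b* libraries was used, with 21 RNA-Seq libraries in the joint fit. The authors mapped reads with TopHat2 to mm9 and deposited raw counts and RPKM per RefSeq gene, with their own DESeq2 log2 fold changes and p-values, which hold their comparisons and were not used. The deposited counts were tested, and the deposited RPKM gave levels of *Gfi1b* only. The binding site list was deposited with a fold, the ratio of ChIP to IgG, and 4 of its columns of per-library values were not used.

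The tool for counts was edgeR 4.0.16 in R 4.3.3 (filterByExpr, TMM, quasi-likelihood test, Benjamini-Hochberg adjustment), with DESeq2 1.42.0 as an alternative. CPM are counts scaled by TMM library size, and 3 counts was the floor. A called gene had an adjusted p up to 0.05 and changed by at least 0.5 in log2. The comparison of all KD with all control libraries held 2 groups, and the single-library comparisons 3 groups. The SE is the log2 fold change over the root of F. Differences between KDs came from 1 fit of the 14558 genes in all tables, of which 14176 were tested. Correlations used genes with an average log2 CPM of 2 or more. The tests were checked on simulated data. Python 3.11.15, pandas 2.3.3, numpy 2.4.6 and matplotlib 3.10.9 were used for sites, sequences and plots.

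The experiment, its gene lists and its tests were chosen with earlier results of these data known. Named genes were *Gfi1b*, called members of the 24 lists (some are not reported here), and the 6 called genes with the largest difference in each direction between the KD libraries that reached 2 CPM. The rule names the 12 largest rises and falls of the pooled comparison too, which called none. Another 2 lists, and genes said to be, were chosen after values were seen. Alternatives were DESeq2 with its size factors, other filters, the replicate block, other thresholds, a spread shared over all 21 RNA-Seq libraries and leaving out each library.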

Additional observations from a re-analysis of the deposited data

Results flagged for a closer look

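The effect of *Gfi1b* KD, over both KD libraries, differed from that of another KD in the joint fit of 21 libraries for the following named genes (difference in log2, edgeR adjusted p of the difference). Against *Cbfa2t3* KD, the effect was lower for *Mcm4* (−0.76, 0.049), *Cyp51* (−0.89, 0.0329), *Idi1* (−0.97, 0.00878), *Fdps* (−1.08, 0.0321) and *Ammecr1* (−1.64, 0.00552), and higher for *Cd53* (4.87, 0.0317) and *Mxd4* (2.97, 0.00289). Against *Irf2bp2* KD, it was lower for *Cyp51* (−1.22, 0.00429), *Idi1* (−1.49, 0.000264), *Fdps* (−1.45, 0.00435) and *Ammecr1* (−1.37, 0.00521), and higher for *Mxd4* (2.55, 0.0029) and *Pdcd4* (1.55, 0.0335). Against *Kdm1a* KD, it was higher for *Mxd4* (1.98, 0.0365) and lower for *Idi1* (−1.01, 0.0157) and *Adam9* (−1.84, 0.0292). For erythroid genes, whose difference between the KD libraries was known when the comparison was set up, the differences from *Kdm1a* KD are a description with no test, of 5.4 for *Alas2*, 9.13 for *Hba-x*, 9.31 for *Epb4.2*, 5.5 for *Rhd* and 1.63 for *Tal1*. Without KD replicate 2 the *Gfi1b* KD effect was 6.43, 4.63 and 1.19 for *Alas2*, *Rhd* and *Tal1*, and without KD replicate 1 it was 0.94, 0.47 and 0.02. The *Kdm1a* comparison has 1 control library. The pooled effect averages the library labelled KD replicate 1, whose *Gfi1b* RNA was above the controls and whose label is uncertain, and KD replicate 2, where it was below them. When only the libraries of the compared tables were fitted, 68, 105 and 1 genes differed from *Cbfa2t3*, *Irf2bp2* and *Kdm1a* KD.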

How the results depend on the processing

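With both KD libraries pooled, the count of 0 calls became 47 with the DESeq2 Wald test, 411 without a filter on low counts, 772 at the unadjusted p and 907 with the spread shared with all RNA-Seq groups, and leaving out single libraries gave 0 to 3148 (396 without KD replicate 1 and 3148 without KD replicate 2). It remained at 0 with the DESeq2 size factors, at least 10 counts in every library and the other fold limits. The labels do not say whether the replicate numbers pair the samples. Differences of same-numbered libraries correlated with r = 0.002 over 11190 genes, which cannot settle this, as the KD libraries differ widely from each other. With the replicate block the count was also 0, and the edgeR adjusted p of *Cma1* and of *Csf2rb2* was 0.0708, against 0.518 and 0.396 without it. With the shared spread the calls numbered 3910 for KD replicate 1 and 520 for KD replicate 2, of which 2825 and 241 were also called with the spread of this table, and none of the 9 listed mast cell genes was called. With the DESeq2 Wald test, calls became 1646 for KD replicate 1, 78 for KD replicate 2 and 1038 between the KD libraries, and with at least 10 counts KD replicate 2 had 217. Differences from *Cbfa2t3*, *Irf2bp2* and *Kdm1a* KD numbered 368, 1052 and 395, became 68, 105 and 1 with only the libraries compared, and ranged over left-out libraries from 136 to 3124, 647 to 3550 and 151 to 2909.

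The log2 fold change of *Gfi1b*, 0.13, was −0.047 with the replicate block and ranged from −0.81 to 0.67 over left-out libraries. Without KD replicate 1 the sign turned for *Gse1* (range −0.055 to 1.52), *Slc22a4* (−0.86 to 4.08), *Itga2b* (−0.10 to 2.46) and *Pf4* (−1.19 to 0.67, −0.09 without control replicate 1 and −0.24 with the replicate block). The cause was not tested. Of 389 values for 39 genes, 264 kept their direction and side of the threshold, 117 passed where the main value did not and 8 turned. Of the called genes, 131 of 1761 raised in KD replicate 1 and 16 of 255 in KD replicate 2 had a mean under 30 counts.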
